A study of Mus musculus with 3 samples.

Results

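The genes described here are 10 housekeeping genes of the mouse, followed as positive controls for H3K36me3, a histone mark of transcribed gene bodies. They were chosen by Ensembl identifier, and all 10 were found among 24318 identified rows. They are Actb (ENSMUSG00000029580), Gapdh (ENSMUSG00000057666), Ppia (ENSMUSG00000071866), Tbp (ENSMUSG00000014767), Polr2a (ENSMUSG00000005198), Eef2 (ENSMUSG00000034994), Eef1a1 (ENSMUSG00000037742), Hsp90ab1 (ENSMUSG00000023944), Rplp0 (ENSMUSG00000067274) and Hprt (ENSMUSG00000025630). The mark was profiled by CUT&Tag, in which an antibody brings a transposase to the mark to cut and tag the DNA beside it. The cells were pancreatic epithelial cells of wild-type (WT) fetuses of strain C57BL/6, labelled for EpCAM, an epithelial surface protein, and sorted by flow cytometry. By the sample labels the stages, in embryonic days, were E11.5 first, E13.5 next and E15.5 last, which is the stage order used below, although the series' design text names a slightly earlier day for the middle one. The labels' protocol gives only a mean read number over the libraries, so the depth of each is unknown. Each stage has 1 library, so every difference below is a size in these libraries, with no test and no measure of spread. In sorted bulk cells, more cells carrying the mark and more mark per cell cannot be told apart. Markers of pancreatic and of other cells could not be looked up, because the reference used here pairs no symbol with an Ensembl identifier. Names of the 10 genes come from the list that chose them.

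H3K36me3 is laid down by SETD2, a methyltransferase that travels with elongating RNA polymerase II, so the mark is known to build up over the bodies of active genes and to be low at their start sites. Housekeeping genes are transcribed in nearly every cell type, which is why they are used as positive controls. The 10 genes cover different basic functions: the cytoskeleton (Actb), glycolysis (Gapdh), translation (Eef1a1, Eef2, Rplp0), protein folding (Hsp90ab1, Ppia), transcription itself (Polr2a, Tbp) and purine salvage (Hprt). Several of them, among them Actb, Gapdh, Ppia, Eef1a1 and Rplp0, are known to have processed pseudogene copies elsewhere in the genome. The rules for reads shared with such copies are not given in the sources used here, so their values are uncertain to that degree.

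RefSeq promoter sequences of GRCm38.p6 matched 8 of the 10 genes by symbol, leaving out Actb and Hsp90ab1. The 250 bases before the start are shown for 4 genes that lie at opposite ends of a comparison made below. Eef2 and Polr2a had the largest E15.5 over E11.5 ratios around the start, and Ppia and Hprt were the members with lower signal there at E15.5. Capitals mark the motifs TATAAA and GGGCGG on either strand.
Eef2, chr10:81176381-81176630, plus strand: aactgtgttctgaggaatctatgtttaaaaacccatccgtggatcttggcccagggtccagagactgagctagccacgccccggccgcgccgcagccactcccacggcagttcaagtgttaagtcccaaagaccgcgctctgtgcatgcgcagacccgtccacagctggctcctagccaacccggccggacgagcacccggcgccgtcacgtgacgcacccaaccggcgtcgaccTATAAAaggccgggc
Polr2a, chr11:69758634-69758883, minus strand: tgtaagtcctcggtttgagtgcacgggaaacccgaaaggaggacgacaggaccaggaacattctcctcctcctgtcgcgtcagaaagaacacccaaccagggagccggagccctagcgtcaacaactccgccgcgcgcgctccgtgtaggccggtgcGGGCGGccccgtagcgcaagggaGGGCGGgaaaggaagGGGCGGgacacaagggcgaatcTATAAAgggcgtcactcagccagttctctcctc
Ppia, chr11:6415617-6415866, plus strand: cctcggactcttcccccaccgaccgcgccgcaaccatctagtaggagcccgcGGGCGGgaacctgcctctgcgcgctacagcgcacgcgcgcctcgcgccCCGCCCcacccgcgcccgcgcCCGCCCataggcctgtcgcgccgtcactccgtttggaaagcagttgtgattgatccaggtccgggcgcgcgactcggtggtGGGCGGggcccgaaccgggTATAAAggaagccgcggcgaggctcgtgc
Hprt, chrX:52987828-52988077, plus strand: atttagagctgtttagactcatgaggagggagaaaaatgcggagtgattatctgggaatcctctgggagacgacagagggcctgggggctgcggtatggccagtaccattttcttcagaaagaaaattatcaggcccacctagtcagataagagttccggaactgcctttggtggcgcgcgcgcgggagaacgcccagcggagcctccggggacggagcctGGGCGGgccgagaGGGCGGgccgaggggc
TATAAA was searched with CCAAT and GGGCGG on both strands of windows of 300 bases, 250 before and 50 after the start. TATAAA was present in Eef2, Polr2a, Ppia and Rplp0, 4 of the 8 genes, against 13.6% of all 32851 promoters. GGGCGG was present in 6 of 8, against 35.7% of all promoters, and CCAAT in 1 of 8 (Rplp0), against 37.4%. Thus TATAAA was found at both ends of the comparison, in Ppia as well as in Eef2 and Polr2a. A match is a description of the letters and not of a bound site, and the Gapdh window lies at a start inside the gene rather than at its outer end. The 8 windows held 12 (Gapdh) to 43 (Ppia) CpG dinucleotides, against a median of 7 over all promoters.

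Each gene has 3 deposited values per library, headed GB, PR and SE, in the authors' scaled signal units. The lengths of the windows bear on what these values can show. The GB window length could be recovered for 9 of the 10 genes, and in 6 it equalled the RefSeq length of the named gene exactly. These were Gapdh (4616 positions), Rplp0 (4263), Hsp90ab1 (5484), Eef2 (5879), Tbp (17540) and Hprt (33583). Eef1a1 (3271) differed from RefSeq by -1 and Polr2a (24635) by -2. Actb had a GB window of 3640 positions, against a RefSeq span of 4862 on chromosome 5, from 142903115 to 142907976. GB is therefore read here as the transcribed body from end to end, and the matches tie the names to the rows. Ppia has no recovered length, since its GB is 0 in each library, and spans 3951 positions on chromosome 11, from 6415867 to 6419817, in RefSeq.

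PR covers 6000 positions and SE 12000. In rows with a GB length of 200 to 3000, the summed GB signal was no larger than the summed PR signal, within 0.02, in 98.5%, 98.7% and 98.8% of rows in stage order. In rows above 3000 and up to 6000 positions this held for 64.3%, 65.2% and 71.1%, whereas GB was within the SE sum in 99.1%, 99.2% and 99.2%. These shares are what windows reaching 3000 (PR) and 6000 (SE) positions into the gene from its start would give, and the columns are read so here, although no source states it. Of the 9 members with a recovered length, 6 are no longer than 6000 positions, so their whole GB window lies inside the SE window and most of it inside PR. For them the 3 columns overlap and are not separate evidence.

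**Figure D1:**
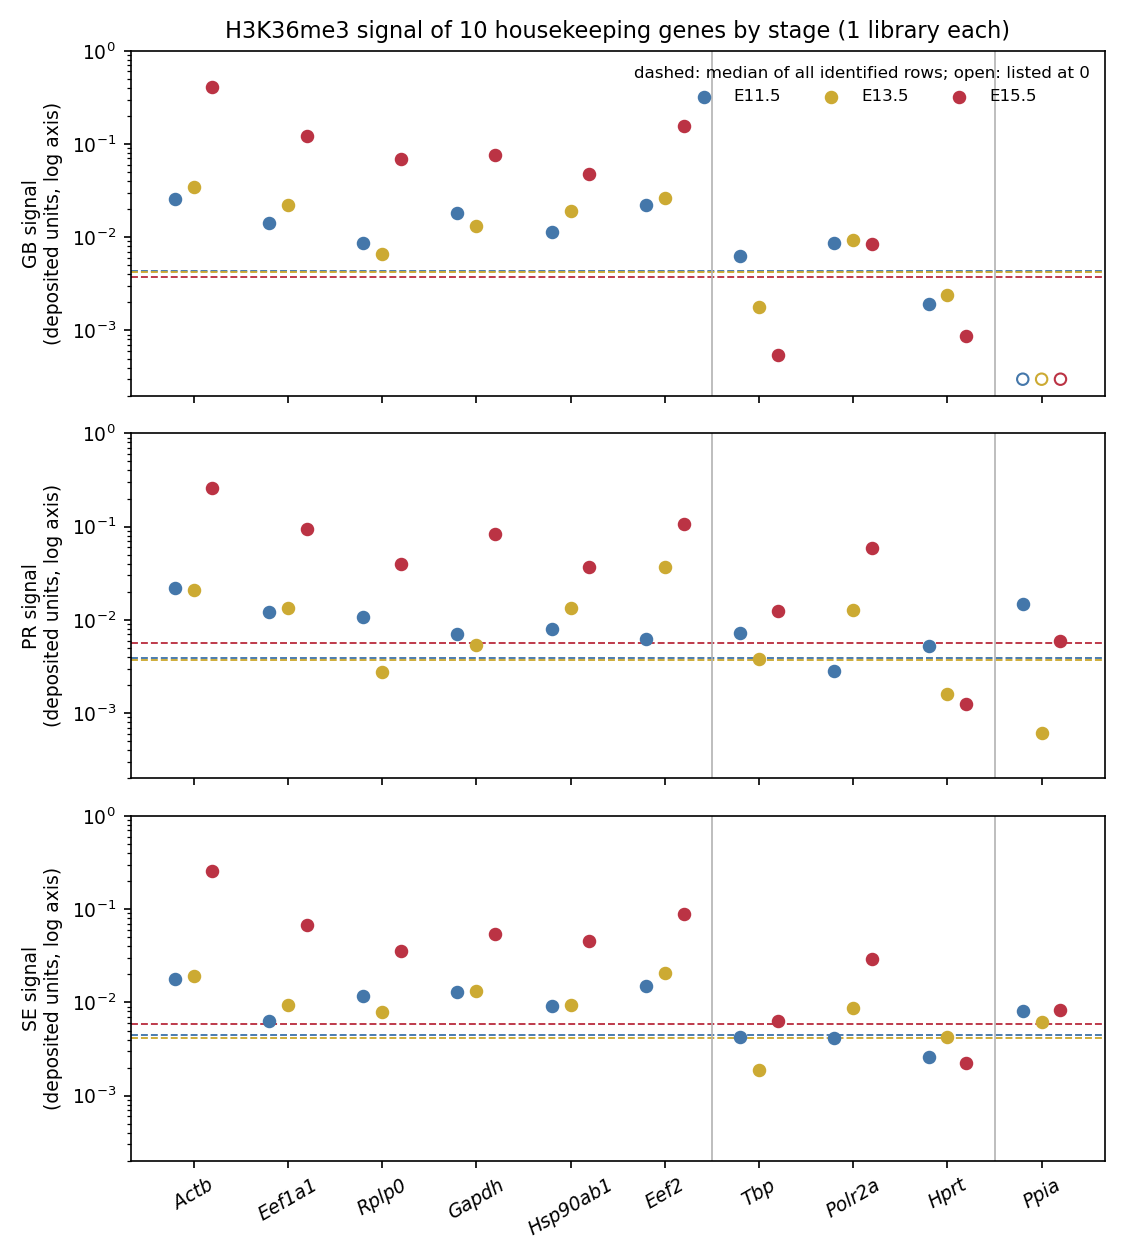
Signal of each housekeeping gene (deposited units, log axes) in the GB, PR and SE columns, with 1 point per library in stage order, short genes left of the first grey line and Ppia at the far right. Dashed lines are medians over all identified rows, and the 6 short genes stand between 0.0479 and 0.404 in GB at E15.5, each above its own earlier values.

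The housekeeping genes were not uniformly high in GB. In stage order, 8, 7 and 7 of the 10 lay above the median of identified rows. At or above the 90th percentile were 4, 5 and 6. Their median GB was 0.01003, 0.0113 and 0.0581 in stage order, against 0.00432, 0.00421 and 0.00371 over all identified rows. The median percentile of the 10 was 83.7, 88.4 and 98.1. These medians count Ppia, which is listed at 0 in each library with no recovered body window, so that its 0 may be no measurement of the body. Over the 9 members with GB above 0 the median GB was 0.0114, 0.0133 and 0.0683, and the median percentile 87.7, 92.6 and 98.7. Among these 9, Polr2a, Tbp and Hprt made up the lower end at E15.5, and the genes of actin, glycolysis, translation and the Hsp90 chaperone the upper end.

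Actb, which encodes the cytoskeletal protein beta-actin, had the highest GB of the 10 in every library. Its GB was 0.0258, 0.0345 and 0.404 in stage order, which is rank 452, 207 and 32 from the top among identified rows. Its PR was 0.0219, 0.0209 and 0.260 in stage order, and at E15.5 it ranked 6 from the top. The earlier stages were close to each other in both columns, and E15.5 stood apart. In the part of SE that lies outside PR, Actb had 0.0137, 0.0172 and 0.257 in stage order, and at E15.5 it held rank 1 of all identified rows.

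Gapdh, a glycolytic enzyme gene on chromosome 6 (125161852 to 125166467), had GB of 0.0184, 0.0133 and 0.0763 in stage order. These values correspond to percentiles of 95.8, 92.6 and 98.9. Its PR was 0.00710, 0.00533 and 0.0832, at percentiles of 69.1, 62.0 and 99.5. Gapdh was thus high in its body at each stage but near the middle of the rows around its start before E15.5. RefSeq places Ncapd2 at 1540 bases from the Gapdh start, inside the PR window as read here, and its part in the PR value was not tested.

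Among the translation genes, Eef2, the factor that moves the ribosome along the mRNA, had GB of 0.0222, 0.0264 and 0.158 in stage order. These GB values lie at percentiles of 97.4, 98.5 and 99.7. Its PR was 0.00618, 0.0371 and 0.107, so that around the start Eef2 stood at percentile 63.9 at E11.5 and already at rank 19 from the top at E13.5. Eef1a1, the factor that brings aminoacyl-tRNAs to the ribosome, had GB of 0.0143, 0.0221 and 0.123 and PR of 0.0121, 0.0135 and 0.0949. Eef1a1 was higher at each later stage in both columns. Rplp0, a protein of the ribosomal stalk, had the lowest GB of the short genes at the earlier stages, with 0.00866, 0.00664 and 0.0683. Its percentiles in GB were 79.5, 71.1 and 98.7. Its PR was 0.0106, 0.00279 and 0.0395, with the E13.5 library below the median of identified rows. Eef2 lies on chromosome 10 (81176631 to 81182509), Eef1a1 on chromosome 9 (78478453 to 78481724) and Rplp0 on chromosome 5 (115559467 to 115563729).

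Of the protein folding genes, Hsp90ab1, the constitutive cytosolic Hsp90 chaperone on chromosome 17 (45567778 to 45573261), had GB of 0.0114, 0.0192 and 0.0479. Its PR was 0.00788, 0.0134 and 0.0371, and it was higher at each later stage in both columns. Ppia, which encodes the prolyl isomerase cyclophilin A, was listed at GB 0 in all 3 libraries. GB was 0 in every library in 1838 identified rows, 7.56% of the total, and PR was above 0 in every library in 781 of these. Ppia belongs to that group, with PR of 0.0148, 0.000613 and 0.00592 and SE of 0.00807, 0.00622 and 0.00823. Its PR percentile was 92.6, 21.3 and 50.8 in stage order, with no common place across the libraries. Whether its body carried no signal or was not measured cannot be told apart from these values.

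The transcription genes behaved unlike each other. Polr2a, the largest subunit of RNA polymerase II, lies on chromosome 11 (69733997 to 69758633) and had nearly level GB, with 0.00870, 0.00935 and 0.00837 in stage order. Its PR was 0.00286, 0.0127 and 0.0585, at percentiles of 42.3, 91.6 and 98.0. Its GB percentiles were 79.7, 84.1 and 72.6. Polr2a thus had similar body signal at each stage in deposited units. Around its start it lay below the middle of the rows at E11.5 and near the top at E15.5. Tbp, the TATA-box binding protein, on chromosome 17 (15499888 to 15517427), had GB of 0.00624, 0.00179 and 0.000539 in stage order. Its GB percentile was 66.0, 25.5 and 26.5. Tbp PR was 0.00729, 0.00380 and 0.0124, at percentiles of 70.1, 50.6 and 65.2. In deposited units its body was thus lowest and its start region highest at E15.5. By percentile its body was lowest at E13.5 and its start region highest at E11.5.

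Hprt, a purine salvage enzyme gene on chromosome X (52988078 to 53021660), was low in the body in every library. Its GB was 0.00191, 0.00238 and 0.000873, at percentiles of 26.8, 30.6 and 28.7. Its PR was 0.00524, 0.00162 and 0.00125, at percentiles of 58.6, 31.6 and 35.6. Hprt was below the GB median in each library. Leaving it out, as the one X-linked member, is among the alternatives in the closing section.

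Signal in a short body is spread over fewer positions, so the rows of like length were used as a second yardstick. Among rows whose GB length was within 2-fold of its own, Actb was at percentile 96.4, 99.3 and 99.9 in stage order. Eef2 was at 96.5, 99.0 and 99.9. Gapdh was at 91.02, 84.49 and 98.13, Eef1a1 at 81.18, 95.52 and 99.27, and Hsp90ab1 at 77.02, 94.96 and 95.74. Rplp0 was at 64.4, 56.6 and 97.3. At both stages before E15.5, Gapdh, Eef1a1, Hsp90ab1 and Rplp0 were each lower here than among all rows. Actb and Eef2 were lower at E11.5 and slightly higher at E13.5. At E15.5 the 6 short genes were at 95.7 or higher among rows of like length. Polr2a was at 77.5, 84.2 and 68.0, Tbp at 55.1, 10.7 and 10.6, and Hprt at 9.52, 13.7 and 9.23. Tbp and Hprt were thus lower at each stage among rows of like length than among all rows.

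**Figure D2:**
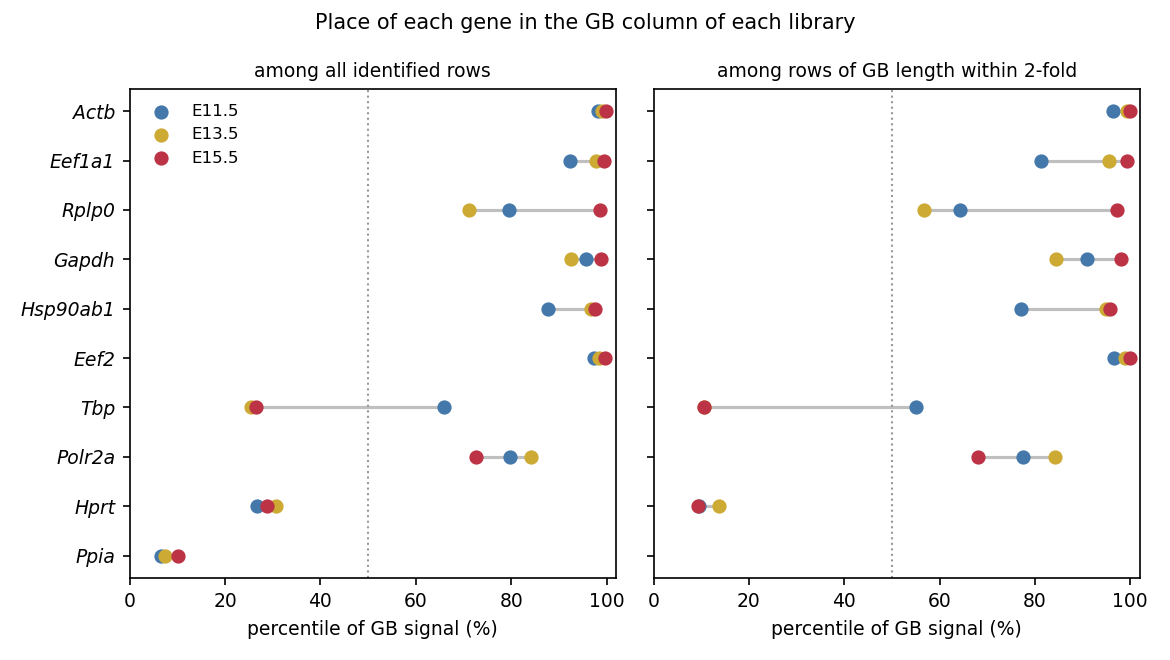
Percentile of the GB signal of each gene in each library (x axis, %), among all identified rows on the left and among rows of GB length within 2-fold on the right, where Ppia has no length and no point. Actb and Eef2 lie at 96.4 or higher in both panels at every stage, and Hprt at 30.6 or lower on the left and 13.7 or lower on the right.

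The first interval compares the E13.5 library with that of E11.5. Ratios here and below are of later over earlier value, each with 0.001 added, and a gene entered where the higher library reached the median over identified rows of all libraries (0.00413 for GB, 0.00407 for PR and 0.00460 for SE). Of the 8 members that entered for GB, 0 were at least 2-fold higher at E13.5, against 17.2% of identified rows. Tbp was at least 2-fold lower, with a ratio of 0.386, where 19.4% of rows were. The median GB ratio of the 8 that entered was 1.12, against 0.953 over rows that entered. In PR, 2 of 10 members were at least 2-fold higher (28.8% of rows) and 3 lower (32.8% of rows), shares close to the background or below it. The 2 were Eef2 at 5.30 and Polr2a at 3.54, and the 3 were Ppia at 0.102, Rplp0 at 0.326 and Hprt at 0.420. In SE, 0 of 8 were 2-fold higher and 0 lower, where 19.9% and 24.8% of rows were.

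The second interval compares the E15.5 library with that of E13.5. Of the 7 members that entered for GB, 6 were at least 2-fold higher at E15.5, where 27.6% of identified rows were. All 6 are short genes, and their ratios were 11.4 for Actb, 9.08 for Rplp0, 5.79 for Eef2, 5.39 for Gapdh, 5.37 for Eef1a1 and 2.42 for Hsp90ab1. Of identified rows of 3000 to 6000 positions, 48.0% were at least 2-fold higher in GB for this pair, with a median ratio of 1.86. Of rows of 17000 to 34000 positions, 21.5% were. Polr2a had a ratio of 0.905, and 0 members were at least 2-fold lower (22.1% of rows). In PR, 9 of 9 members that entered were at least 2-fold higher, where 52.2% of rows were, and 0 were lower (24.7% of rows). These 9 ranged from 2.65 for Hsp90ab1 to 13.3 for Gapdh, and the member that did not enter was Hprt. In SE, 8 of 9 were 2-fold higher (45.7% of rows) and 0 lower (17.9% of rows). Dividing each library by its mean GB left 6 members at least 2-fold higher in PR and 7 in SE. Quantile normalization left 5 in PR and 4 in SE, and a pseudocount of 0.005 left 7 in PR and 7 in SE.

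The widest span compares the E15.5 library with that of E11.5. Of 8 members that entered for GB, 6 passed 2-fold upwards, against 26.5% of rows, and they were again the short genes. Actb had a ratio of 15.1, Eef1a1 8.14, Rplp0 7.18, Eef2 6.84, Gapdh 3.99 and Hsp90ab1 3.95. Tbp was lower, with a ratio of 0.213, where 22.8% of rows were at least 2-fold lower, and Polr2a had 0.966. Over the 8 that entered the GB ratio thus ran from 0.213 to 15.1. In PR, 7 of 10 members were at least 2-fold higher, where 50.0% of rows were, and 2 lower, where 26.0% were. Polr2a had the largest PR ratio, 15.4, followed by Eef2 at 15.1, Actb at 11.4 and Gapdh at 10.4. The lower ones were Ppia at 0.437 and Hprt at 0.361, and Tbp had 1.62. In SE, 7 of 9 were higher (42.7% of rows) and 0 lower (19.7% of rows). The median ratio of the members that entered was 5.22 in GB (8 genes), 5.59 in PR (10) and 4.66 in SE (9), against 1.10, 2.001 and 1.64 over all rows that entered. Under quantile normalization these medians became 2.74, 2.38 and 2.23, against 1.001, 1.007 and 0.995 over rows. Under mean GB scaling they became 3.60 in GB (8 genes), 3.88 in PR (10) and 3.54 in SE (8), against 0.728, 1.37 and 1.10. The comparisons that involve E15.5 share that library, so their calls are not independent.

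**Figure D3:**
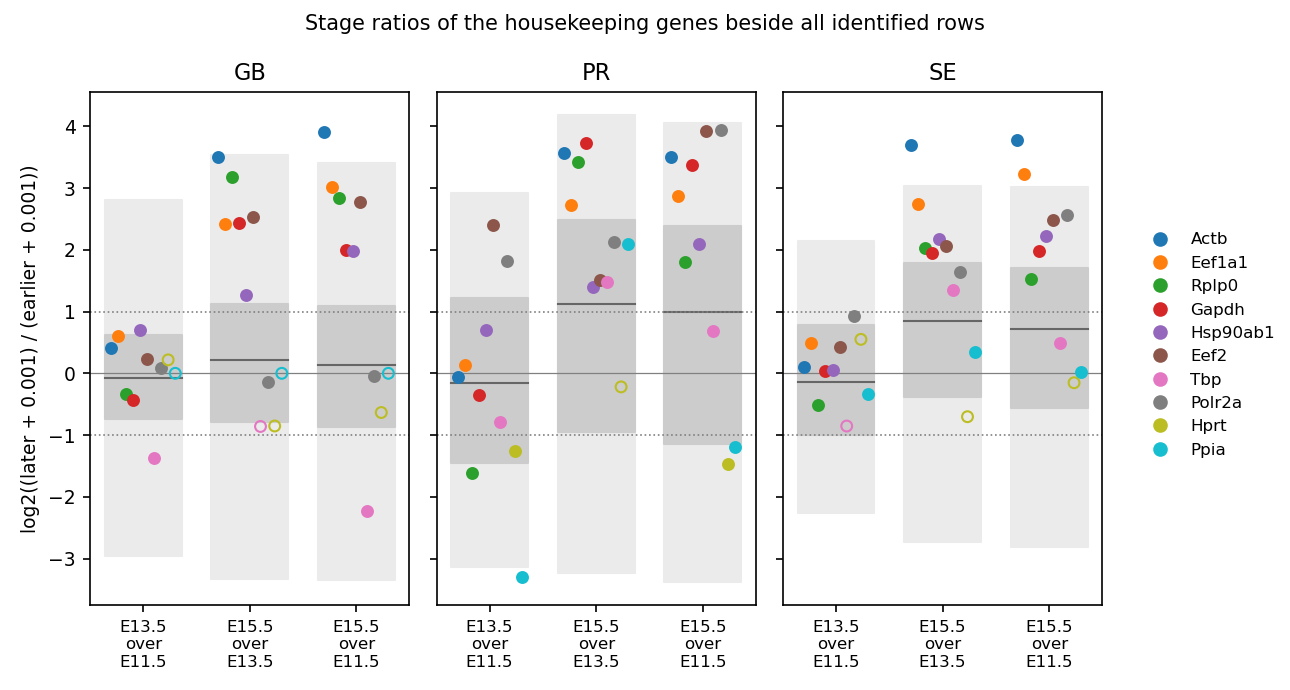
Log2 ratio of later over earlier signal, with 0.001 added to each value, for the 10 genes in 3 stage pairs and 3 columns, 1 library per stage. Light bands hold the 5th to 95th percentile and dark bands the 25th to 75th percentile of identified rows that entered, open points are members below the entry level, and dotted lines mark 2-fold. Actb lies above the light band in GB and SE for E15.5 over E11.5, with 15.1 and 13.8 as ratios.

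The members were also grouped by body length, a choice made after seeing the data. In GB at E15.5 the 6 genes of up to 6000 positions had 0.0479 to 0.404. Tbp, Polr2a and Hprt, all of 17540 positions or more, had 0.000539 to 0.00837. Among all identified rows these are percentiles of 97.5 to 99.9 for the short genes and 26.5 to 72.6 for the long ones. The share of rows of each length at such levels was not counted, in GB or in SE. At E11.5 the ranges overlapped narrowly, with 0.00866 as the lowest short gene (Rplp0) and 0.00870 as the highest long one (Polr2a). At E13.5 they overlapped more, with 0.00664 for Rplp0 and 0.00935 for Polr2a. In PR the ranges overlapped in each library, and at E15.5 Polr2a, with 0.0585, lay among the short genes (0.0371 to 0.260). In SE they overlapped at E13.5, whereas at E15.5 the lowest short gene had 0.0355 and Polr2a 0.0292, and at E11.5 the lowest short gene had 0.00639 and the highest long one 0.00424. The E15.5 over E11.5 ratio of Polr2a was 15.4 in PR and 5.90 in SE, against 3.49 to 15.1 and 2.87 to 13.8 in the short genes. Of identified rows of 3000 to 6000 positions, 45.8% were at least 2-fold higher in GB for E15.5 over E11.5, with a median ratio of 1.67. Of rows of 17000 to 34000 positions, 20.5% were, with a median ratio of 1.13. The 6 short members, from 3.95 to 15.1, all lay above the median of their class. In PR the classes differed the other way, with 48.1% of the shorter rows at a median ratio of 1.86 and 52.1% of the longer rows at 2.11. In SE the shares were 41.8% of the shorter rows, at 1.62, and 43.5% of the longer rows, at 1.68. Mean GB at E15.5 was 0.0158 over rows of 3000 to 6000 positions, against 0.00924 over all identified rows. Among rows of like length, GB at E15.5 stood at percentile 95.7 or higher in the 6 short members. It stood at 10.6 for Tbp, 68.0 for Polr2a and 9.23 for Hprt. The part of length in the members' values was not tested.

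For the 6 short genes, the SE window as read here holds the whole GB window, so the rest of it (12000 positions less the GB length) could be computed by subtraction and set against the body. For Actb the GB window of 3640 positions is shorter than the RefSeq span of 4862, so its surroundings can hold part of the gene itself. At E15.5 the body level was 6.68 times that of the rest of the window for Eef2, 3.92 times for Rplp0, 2.58 times for Eef1a1, 2.07 times for Actb, 1.93 times for Gapdh and 1.08 times for Hsp90ab1. At E11.5 these ratios were 2.69, 0.645, 4.13, 1.80, 1.96 and 1.59 in the same gene order. At E13.5 they were 1.75, 0.767, 4.76, 2.80, 1.03 and 15.6. The 15.6 of Hsp90ab1 rests on a low surrounding level of 0.00123, with 92.9% of its SE sum in the body. Rplp0 was the one short gene whose body lay below its surroundings, at both earlier stages. Over 2256 identified rows of 3000 to 6000 positions, the ratio of mean body to mean surrounding signal was 1.26, 1.26 and 1.45 in stage order. The body was above its surroundings in 5, 5 and 6 of the 6 members, against 55.6%, 55.8% and 52.1% of these rows. It was at least 2-fold above in 2, 3 and 4 members, against 36.5%, 34.3% and 37.6% of rows.

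**Figure D4:**
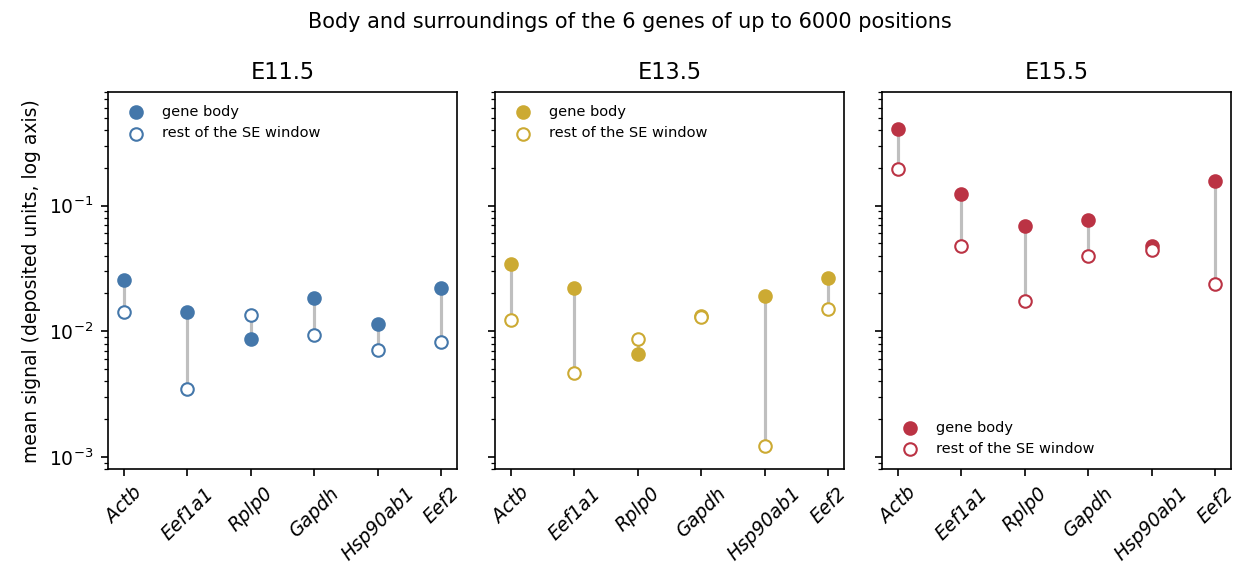
Mean signal over the gene body (filled) and over the rest of the SE window (open) for the 6 short genes, in deposited units on a log axis, with 1 panel per library. At E15.5 all 6 bodies lie above their surroundings, from 1.08 times for Hsp90ab1 to 6.68 times for Eef2.

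Surrounding signal was also higher at E15.5 than earlier for each of the 6. For Actb, where it can include part of the gene, it was 0.0143, 0.0123 and 0.195 in stage order. For Eef2 it was 0.00825, 0.0151 and 0.0236, and for Hsp90ab1 0.00713, 0.00123 and 0.0442. For Gapdh it was 0.00938, 0.0130 and 0.0395, for Eef1a1 0.00345, 0.00464 and 0.0478, and for Rplp0 0.0134, 0.00866 and 0.0174. Over the 2256 identified rows used above, mean surrounding signal was 0.00620, 0.00586 and 0.0109 in stage order. For the 5 genes other than Actb, the higher values at E15.5 in deposited units were therefore not confined to the body. Higher surrounding signal at E15.5 was not particular to these genes either, and the part of that library's scale in it was not tested. Neighbours of Actb and Hsp90ab1 were not looked up. RefSeq places parts of Pxn and Gcn1 within 6000 bases of the Rplp0 start, and part of Iffo1 as well as Ncapd2 within that distance of the Gapdh start. The near edge of LOC115487230, a long noncoding RNA gene, lies 5816 bases from the Eef1a1 start. Their part in the surrounding signal was not tested.

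For Polr2a the window sums set a bound on where the E15.5 signal lay. Its PR sum was 350.76 and its SE sum 350.93 at E15.5, so the 6000 positions of SE outside PR held 0.17 in summed signal, which is 1 step of that library. Its whole body summed to 206.26. At least 144.5 of the PR sum therefore lay before the start and outside the body, a mean of at least 0.0482 over those 3000 positions, against 0.00837 over the body. At E11.5 the body summed to 214.33 and PR to 17.16, and at E13.5 to 230.38 and 76.01, so no such bound follows there. RefSeq places Slc35g3 at 1251 bases before the Polr2a start, and its part in this signal was not tested. Tbp gave a similar bound at E15.5, with a PR sum of 74.29 and a body sum of 9.45. At least 64.84 of it lay outside the body. The near edge of Psmb1 lies 1612 bases before the Tbp start in RefSeq, and its part in this signal was not tested. Such bounds were not particular to these genes. At E15.5 at least 166.34 of the PR sum lay outside the GB window for Eef1a1, 146.95 for Gapdh and 87.98 for Actb. For Eef2, Hsp90ab1, Rplp0 and Hprt the PR sum was below the GB sum. GB was within the PR sum at E15.5 in 71.1% of rows of 3001 to 6000 positions and 39.9% of 6001 to 12000. Longer rows were not counted.

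The ratio of PR to GB within a library does not depend on its scale. Over the 9 members with GB above 0 its median was 0.847, 0.679 and 0.775 in stage order. For Tbp it was 1.17, 2.11 and 23.0 in stage order, and for Polr2a 0.329, 1.35 and 6.98. The 23.0 rests on a low Tbp GB of 0.000539, a body sum of 58 steps. For Actb the ratio of PR to GB was 0.847, 0.607 and 0.643, and for Eef1a1 0.852, 0.608 and 0.770. Actb, Eef1a1 and Hsp90ab1 (0.693, 0.699 and 0.775) held PR and GB in similar proportion at each stage. For the short genes the PR and GB windows overlap as read here. Their ratios, and the median over the 9 members, are therefore partly set by the window lengths. For Actb at E13.5 both sums were 125.57, so its 0.607 reflects only the window lengths of 3640 and 6000. The other short genes varied more, with 0.278, 1.41 and 0.682 for Eef2, 1.23, 0.420 and 0.579 for Rplp0 and 0.386, 0.399 and 1.09 for Gapdh.

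The values rest on few steps of signal in several members. The smallest step of a library, in units of summed signal, was 0.16188, 0.16743 and 0.16292 in stage order. The Actb body held 580, 750 and 9019 such steps in stage order, the Rplp0 body 228, 169 and 1788, and the Tbp body 676, 188 and 58. The Hprt PR window held 194, 58 and 46 steps, and the Ppia PR window 550, 22 and 218. A step is not a read, since a read can add many, and no counting interval could therefore be computed. No library without the antibody was analysed here, so how much of each value is background was not measured.

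The scale of the E15.5 library bears on all its ratios. Dividing each library by its mean GB moved the median log2 GB ratio of identified rows by -0.55 for E15.5 over E13.5 and by -0.46 for E15.5 over E11.5. Dividing by the median GB moved it by 0.16 and 0.19, and quantile normalization by -0.17 and -0.11. With mean GB scaling the share of GB calls that were higher became 33.1% instead of 55.5%, and 34.8% instead of 53.7%. PR calls for E15.5 over E13.5 became 56.4% higher instead of 67.9%, and SE calls 51.4% instead of 71.9% for that pair and 51.5% instead of 68.4% for the whole span. Under quantile normalization, which evens the libraries by construction, PR calls became 50.1% higher for both pairs with E15.5, where 65.8% were higher for the whole span as deposited, and SE calls 50.0% and 50.4%. Under mean GB scaling, 5 members were at least 2-fold higher in GB for E15.5 over E13.5 and 6 for E15.5 over E11.5, and under quantile normalization 5 and 5.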

How the data were processed

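The members and gene lists were chosen with earlier results of these data known. The authors deposited 1 file per library with signal values in 3 columns (PR, GB, SE), per the file headers, in 25493 rows, of which 1175 (4.61%) lack an identifier and were left out, and 2 rows have no SE value. Bowtie2 2.4.2 and build mm10 (GRCm38) are listed in the submitters' processing notes, with no settings. Filters, scaling and gene models are not given in the sources used here. Values were used as deposited.

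From them were computed percentiles among identified rows (ties at their middle rank), length-matched percentiles, log2 ratios with a pseudocount of 0.001 and calls at 2-fold, with Python 3.11.15, numpy 2.4.6 and pandas 2.3.3. A GB length was taken as the lowest multiplier that turned the GB values above 0 into whole steps in each library. Tested on simulated data, 98.8% of 2000 windows were exact. PR values times 6000 were whole steps in 100.0% of rows, at a tolerance of 0.05 steps. The rule for named genes was to name all 10 members. The body against its surroundings, the length classes and the reading of PR and SE as windows around the start were chosen after seeing the data. Lists of other housekeeping genes, silent genes and cell markers could not be used, since 0 reference rows carry an Ensembl identifier. The alternatives were other ranking rows, scalings, pseudocounts, thresholds and members.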

Additional observations from a re-analysis of the deposited data

How the results depend on the processing

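Recomputing 30 results under the alternatives gave 264 values, of which 215 stayed within 1.5 times the value reported. With a single library for each stage no difference could be set against replicate spread, and with depth unknown no counting error could be given. No paired analysis was possible because no stage has a second library. Where a value moved, the cause was not tested, except where fewer members or a larger pseudocount account for it by construction. Ranking among all rows, rows above 0 or rows of like length moved no count of genes above the median by over 1.5 times.

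Above the median of identified rows, in stage order, were 9, 7 and 9 members in PR and 7, 9 and 9 in SE. At the 90th percentile, members numbered 4, 5 and 6 in GB, 2, 5 and 7 in PR, and 4, 3 and 7 in SE. The 3 members of at least 6000 positions gave, in stage order, 2, 1 and 1 above the median in GB, 2, 2 and 2 in PR, and 0, 2 and 2 in SE. For GB, 0 of these 3 passed 2-fold upwards at E15.5, whichever earlier stage it was set against. In PR, 1 was higher and 1 lower for E13.5 over E11.5, 2 were higher for E15.5 over E13.5, and 1 higher and 1 lower for E15.5 over E11.5. In SE, 2 and 1 were higher for E15.5 over each earlier stage, E13.5 first.

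A pseudocount of 1, far above the values, gave 0 calls in each comparison that had any. A pseudocount of 0.005 gave 0 lower in GB for E13.5 over E11.5 and 0 lower in PR for E15.5 over E11.5, and 0.0001 gave 1 higher in SE for E13.5 over E11.5. A threshold of 1.5-fold gave 2 higher in GB and 1 higher in SE for that pair. The remaining changes came from scaling and members. Quantile normalization gave 5 higher in PR and 4 in SE for E15.5 over E13.5, and 1 higher in SE for E13.5 over E11.5. Mean GB scaling gave 1 higher in SE for E13.5 over E11.5 and 1 lower in SE for E15.5 over E13.5. Median GB scaling, and leaving out Hprt, each gave 1 lower in PR for E15.5 over E11.5. With the part of SE outside PR in place of GB, the median PR ratio became 1.83 for E13.5 and 1.51 for E15.5. Over the 3 longer members the median of PR over GB was 1.35 for E13.5 and 6.98 for E15.5.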
